A study of Orbilia oligospora with 12 samples.

Results

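After 48 h with nematode extract, hyphae of Arthrobotrys oligospora labelled ΔAorlmA were compared with wild-type hyphae at the same time, 3 libraries a side. These 6 of the 12 RNA-seq libraries of the series were taken by their genotype and time labels. The fungus, also named Orbilia oligospora, had grown for 5 days at 28 °C on potato dextrose agar, and all groups carry the same treatment label, nematode extract to induce traps. The other 6 libraries, 3 of either strain at 0 h, entered the same model. Values at 0 h are given for some lists and genes only. Where none stand, the difference at 0 h may have been unlike that at 48 h. Replicates are called biological in the labels, with nothing on separate cultures or on how many transformants the strain stands for. The p-values thus measure the spread between these samples alone, and that spread may be technical. All 6 libraries are labelled hyphae, and the labels do not say how many of the hyphae had formed traps.

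A. oligospora feeds on dead matter until it senses nematodes, and then builds adhesive networks from its hyphae. AorlmA is named for Rlm1, a MADS-box transcription factor which in baker's yeast is switched on by the last kinase of the cell wall integrity pathway and drives genes that strengthen the wall. That pathway runs from sensors of wall stress through the GTPase Rho1 and protein kinase C to a cascade of MAP kinases.

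The gene whose loss the label states was looked at first. AOL_s00078g125, annotated as SMP1 and RLM1, was taken as that gene by its annotation and by the number in the sample titles (A125). Other loci, such as AOL_s00210g125, share the number, so the identity of the targeted gene is inferred. AOL_s00210g125 was called lower in the labelled libraries (log2 fold change -1.66) and kept that call with each 48 h library left out. AOL_s00078g125 was not lost. It had 32.3, 45.1 and 27.9 TPM (a length-scaled share of each library's transcripts) in wild-type replicates 1, 2 and 3, and 108.6, 96.9 and 87.3 TPM in replicates 1, 2 and 3 labelled ΔAorlmA. Every labelled library lay above every wild-type library. The log2 fold change, labelled minus wild type on log2(TPM + 1), was 1.47 (SE 0.31, limma adjusted p = 0.0092), and an exact permutation test (two-sided) had p = 0.1, the smallest value possible with 3 against 3. The files do not show which part of the gene the reads cover, and the growth protocol names a different deletion, ΔAosnf1. The strain is therefore called by its label, and each direction is one between libraries so labelled.

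The other 2 MADS-box genes did not pass the limma test with all libraries. Without labelled replicate 1, and under at least 1 alternative that kept all libraries, 1 MADS-box gene was called lower. AOL_s00112g128 is annotated as MCM1, a regulator of mating and cell cycle genes in yeast, and carries the same KEGG entry, RLM1, as AOL_s00078g125. It had 309, 369 and 361 TPM in the wild type against 291, 217 and 214.5 TPM in the labelled libraries (log2 fold change -0.53, limma adjusted p = 0.0791), with every labelled library below every wild-type library. The exact permutation test gave p = 0.1 here too, the smallest value possible. AOL_s00088g15, which carries the same DNA-binding domain, had 8.2 to 12.4 and 7.37 to 11.4 TPM, and the groups overlapped.

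**Figure D1:**
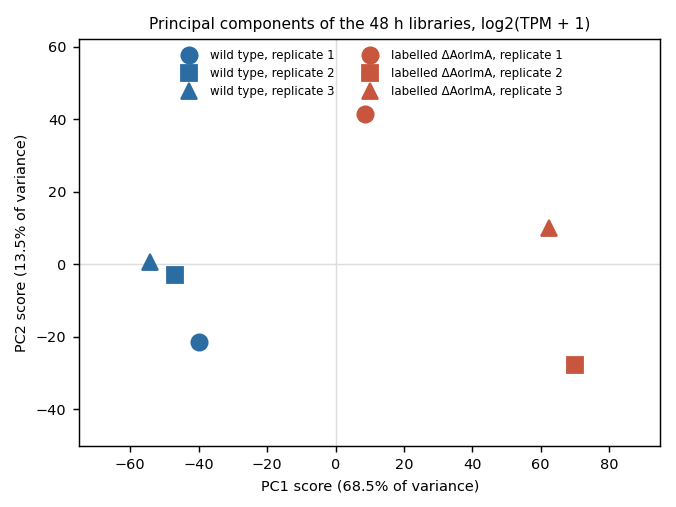
The 6 libraries at 48 h on the first and second principal components of the log2(TPM + 1) values. On the first component labelled replicate 1 sits between the wild-type libraries and the other labelled libraries.

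The labelled libraries did not lie equally far from the wild type. The first principal component of the 48 h libraries held 68.5% of the variance; the wild-type libraries were at -40.05, -46.9 and -54.2, labelled replicate 1 at 8.72, and labelled replicates 2 and 3 at 69.9 and 62.5. Labelled replicate 1 correlated with the wild-type libraries as closely as with its own group (mean Pearson r across genes 0.936 and 0.932). It was the labelled library nearest the wild-type mean in 59.98% of all genes tested, 63.2% of those called higher and 90.2% of those called lower. Each library held at least 48.5 M clean reads (median 57.95 M), with 8450 to 8813 genes at 1 TPM or more. In what follows, counts "without each library in turn" come in the order wild-type replicates 1, 2, 3 and labelled replicates 1, 2, 3.

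Of 9355 genes tested, limma called 2234 (23.9%), that is, gave them an adjusted p under 0.05. In the labelled libraries 861 (9.2%) were higher and 1373 (14.7%) lower. Rises were the larger changes: 279 of the genes called higher and 92 of those called lower differed at least 4-fold, and 79 and 3 at least 8-fold. The groups did not overlap in 786 of the genes called higher and 1348 of those called lower. Over all genes the median log2 fold change was -0.11. Median-of-ratios scaling moved it to 0.01 and called 1002 genes higher and 1172 lower. Genes with an annotation leaned downward, 592 higher and 1202 lower of 7025 (8.43% and 17.1%), and genes without one leaned upward, 269 and 171 of 2330 (11.5% and 7.34%).

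The count rested on single libraries: with each left out in turn 1225, 861, 697, 3093, 762 and 491 genes were called. In all 6 of these fits 428 genes kept the call they had with every library, 177 higher and 251 lower, and none of the 2234 turned its direction. For this reason the list counts below stand with the 6 leave-out counts or their range, and are to be read against the 9.2% of all genes called higher and the 14.7% called lower.

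**Figure D2:**
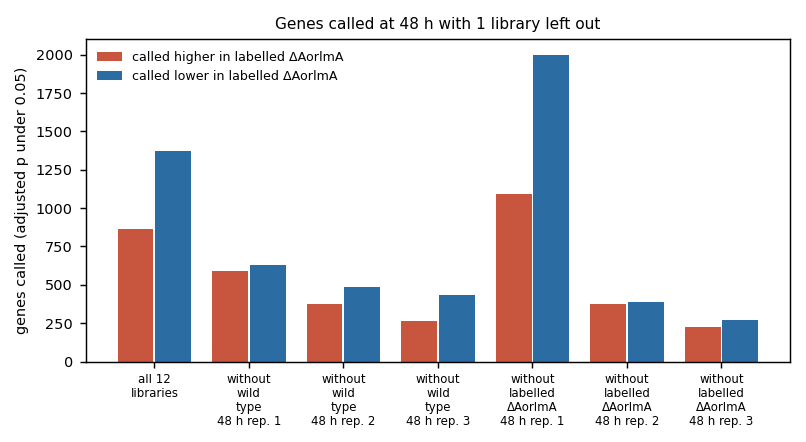
Number of genes called higher and lower at 48 h with all libraries and with each 48 h library left out. The total of both directions ran from 491 without labelled replicate 3 to 3093 without labelled replicate 1.

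The copying of DNA was the activity whose genes were lower with the largest median among the 49 lists. Of 40 tested genes of DNA replication 29 were called lower (72.5%, against 14.7% of all genes) and none higher, with a median log2 fold change of -1.75 against -0.11 for all genes. Their summed level was 2989, 3082 and 3338 TPM in the wild type against 1597, 824 and 1040 TPM in the labelled libraries, so that the groups did not overlap and labelled replicate 1 was the highest of its group. Under median-of-ratios scaling 28 were lower, and without each library in turn 27, 25, 25, 29, 22 and 21. The same 21 genes were called lower in all 6 of those fits. RNA of the whole culture was sequenced, so fewer cells of a kind and less RNA per cell cannot be told apart here or below.

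MCM2 to MCM7 form the ring that unwinds DNA at the fork. MCM3 (AOL_s00109g45) had 62.2, 60.25 and 60.1 TPM in the wild type against 22.2, 4.92 and 6.24 TPM in the labelled libraries (log2 fold change -2.63, SE 0.44, limma adjusted p = 0.00535). The wild-type values lay close together, and labelled replicate 1 was the nearest to them. MCM5 (AOL_s00007g395) had 129, 144 and 119.6 against 56.7, 11.8 and 17.3 TPM (-2.47), and MCM7 (AOL_s00054g769) 85.7, 95.3 and 91.6 against 37.8, 9.9 and 14.8 TPM (-2.29). In all, 5 of the 6 ring subunits were called lower, and MCM4 (AOL_s00080g270) did not pass (-0.24, limma adjusted p = 0.51). The MCM2 and MCM6 calls ended without some libraries, MCM6 (AOL_s00006g301, -2.03) without labelled replicates 2 and 3 and MCM2 (AOL_s00006g2, -1.36) without each library but labelled replicate 1, with adjusted p up to 0.0605 and 0.162. MCM2 also ended under median-of-ratios scaling. The subunits of these complexes, and the single genes named for them below, were grouped after their values were seen.

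The other parts of the fork did the same. Replication factor C loads the sliding clamp onto DNA, and all 5 of its subunits were called lower, from -2.58 to -1.75. RFC5 (AOL_s00081g215) had 108.3, 115.01 and 133 TPM in the wild type against 40.6, 10.1 and 16.1 TPM in the labelled libraries, and RFC3 (AOL_s00215g298) 106, 108.7 and 134.6 against 37.99, 9.96 and 16.3 TPM. PCNA (AOL_s00043g703), the clamp itself, had 228, 276 and 292 against 129, 28.0 and 57.6 TPM (-2.13, limma adjusted p = 0.009). These groups did not overlap, and in each gene labelled replicate 2 was the lowest. Of the 12 subunits of the replicative DNA polymerases and primase 11 were lower (median -1.70), and all 3 subunits of the single-strand binding protein RPA were, led by RPA2 (AOL_s00006g345) with 197, 199 and 209 against 63.6, 19.5 and 33.7 TPM (-2.50, adjusted p = 0.00281). Flap endonuclease 1 (AOL_s00007g552), which trims Okazaki fragments, was lower (-2.24), as was thymidylate synthase (AOL_s00076g297, -2.25), which makes a building block of DNA. Both subunits of ribonucleotide reductase, which supplies deoxynucleotides, were lower (AOL_s00110g137, -2.25, and AOL_s00054g431, -2.12), calls that ended without wild-type replicates 2 and 3 and labelled replicates 2 and 3, and for the second also without wild-type replicate 1 (adjusted p up to 0.0899).

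Histones, which package the copied DNA, were among the most abundant transcripts that were lower. All 6 genes of the core histones were called lower (median -1.64), and their sum was 16220, 15352 and 16525 TPM in the wild type against 8552, 4228 and 6146 TPM in the labelled libraries. H2A (AOL_s00169g4) had 3381, 3282 and 3427 against 1655, 517 and 944 TPM (log2 fold change -1.85, limma adjusted p = 0.00714). Its neighbour H2B (AOL_s00169g5) was lower by a like amount (-1.76), and the H4 genes gave -1.35 (AOL_s00006g399), -1.56 (AOL_s00043g615) and -1.71 (AOL_s00117g1). The H3 gene AOL_s00117g2 gave the smallest difference (3287, 3152 and 3566 against 2201, 1934 and 2113 TPM, -0.68). Its call ended without each library except labelled replicate 1 (adjusted p up to 0.148) and under median-of-ratios scaling.

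Genes of DNA repair and of the cell cycle were lower too. Of 82 repair genes 43 were called lower (52.4%, against 14.7% of all genes) and none higher (median -1.12), 26 of them in every leave-one-out fit, which gave 36, 34, 34, 47, 30 and 26. BRC1 (AOL_s00006g217), which guards stalled forks in fission yeast, had 64.2, 66.9 and 71.3 TPM in the wild type against 24.2, 4.96 and 6.81 TPM in the labelled libraries (-2.70, limma adjusted p = 0.00755). Of 82 cell cycle genes 30 were lower (36.6%) and 3 higher (median -0.99), with 13 lower in every leave-one-out fit (18, 17, 19, 44, 15 and 13). Chk1 (AOL_s00080g44), the kinase that halts the cycle when DNA is damaged, had 39.9, 35.3 and 38.9 against 19.1, 9.76 and 11.99 TPM (-1.47). The lists of replication and repair share genes, RPA2 among them. At 0 h 21 replication genes, 46 repair genes and 35 cell cycle genes were called lower, where 33.8% of all genes were, but 3, 10 and 7 under median-of-ratios scaling. In none of the replication genes called lower at 48 h did the strain difference itself differ between the times by the interaction test with TPM as deposited. Under median-of-ratios scaling that test called 3 of the 40 genes of the replication list.

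**Figure D3:**
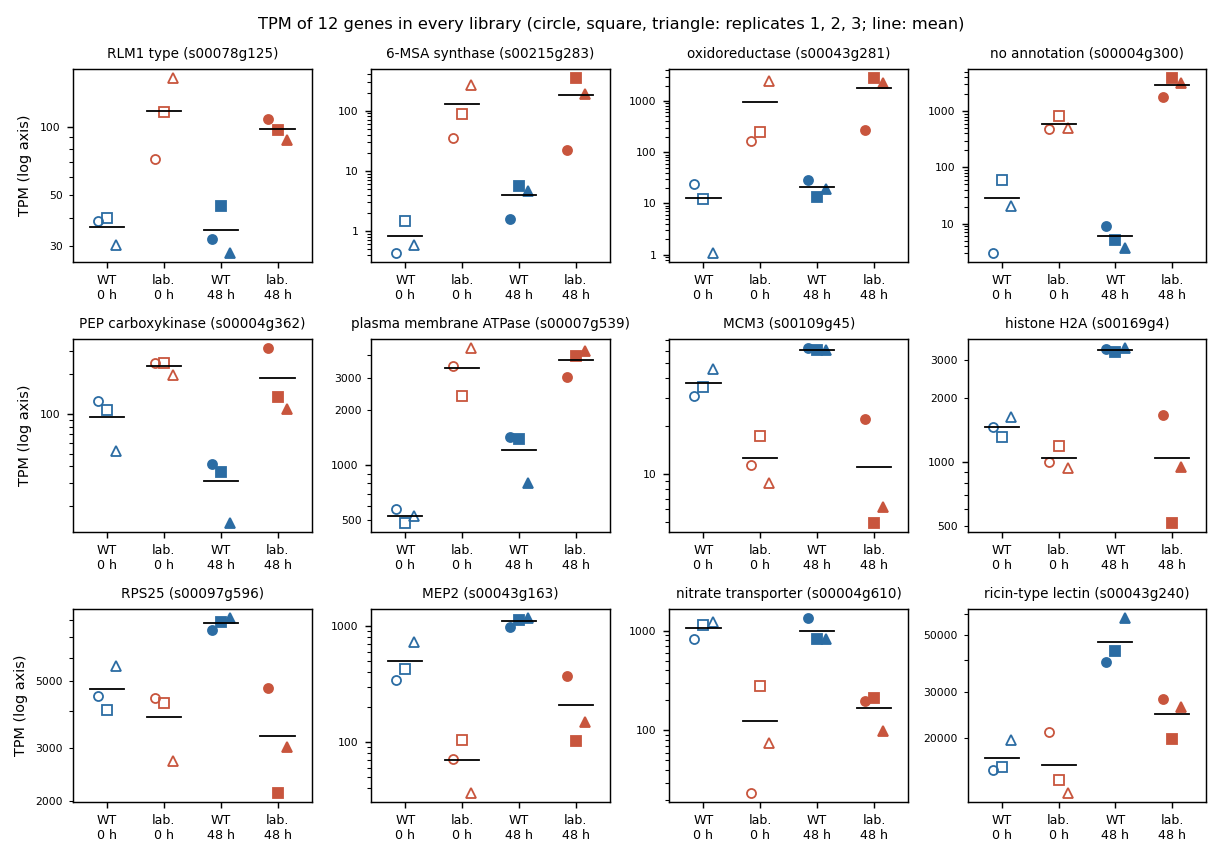
TPM of 12 genes in each of the 12 libraries on log axes, by strain and time, with the group means as lines. At 48 h the labelled libraries lie above the wild type for RLM1, 6-methylsalicylic acid synthase, an oxidoreductase, an unannotated gene, PEP carboxykinase and the plasma membrane ATPase, and below it for the other 6 genes, the ricin-type lectin without passing the test.

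Ribosomal protein genes held the largest share of members called lower of the 49 lists, but few of these calls stood without 1 of the libraries. Of 78 cytosolic ribosomal protein genes 62 were lower and 1 higher (79.5% lower, median -1.06), in both the small subunit (25 of 31) and the large one (37 of 47, with 1 higher). Together they held 11.5, 13.1 and 13.2% of all TPM in the wild type and 9.13, 4.53 and 5.77% in the labelled libraries. Of the 78, 76 had a negative log2 fold change and in 71 every labelled library lay below every wild-type one, against 2759 of 9355 genes in all. Labelled replicate 1 was nearest the wild type in 75 of them. The counts without each library in turn were 15, 0, 0, 74, 0 and 0, so no ribosomal protein gene kept its call throughout; median-of-ratios scaling left 49 lower. At 0 h 1 gene was called higher and 1 lower. The KEGG entries also put genes with other annotation among the 47 of the large subunit. These include a glutaredoxin (AOL_s00173g115), a gene whose only domain is CDC14 (AOL_s00075g205) and the ribosome biogenesis protein RLP24 (AOL_s00054g343).

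Among single ribosomal genes, RPS25 (AOL_s00097g596) had the largest loss of TPM among the annotated genes called whose groups did not overlap, with 7423, 7853 and 8116 TPM in the wild type against 4753, 2131 and 3025 TPM in the labelled libraries (-1.32, limma adjusted p = 0.0176). RPL39 (AOL_s00215g706) had 4582, 4855 and 5058 against 3292, 1578 and 2009 TPM (-1.14), and RPL38 (AOL_s00076g198) 3551, 4338 and 4540 against 2735, 928 and 1334 TPM (-1.46). All 3 calls ended without wild-type replicates 2 and 3 and labelled replicates 2 and 3, and that of RPL39 also without wild-type replicate 1 (adjusted p up to 0.102). The 1 member called higher, AOL_s00075g220, is annotated by similarity as a fusion of ubiquitin and a ribosomal protein, but the domains listed for it are of ubiquitin and a zinc finger and none is ribosomal (507, 446 and 431 against 722, 1823 and 1583 TPM, 1.47). Its call ended without every library except labelled replicate 1 and under 4 other alternatives, median-of-ratios scaling among them, with adjusted p up to 0.156.

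Genes for splicing and for making and charging the parts of the ribosome were lower as well. Of 95 genes of the spliceosome, which removes introns, 58 were lower (61.1%, against 14.7% of all genes) and none higher (median -0.91; without each library in turn 33, 28, 27, 65, 23 and 17). The core protein Sm D3 (AOL_s00215g169) had 478, 451 and 496 TPM in the wild type against 210.4, 106 and 147 TPM in the labelled libraries (-1.67, limma adjusted p = 0.0044). Of 67 ribosome biogenesis genes 26 were lower (38.8%) and none higher (12, 10, 9, 46, 7 and 4 without each library). Of 59 mitochondrial ribosomal proteins 28 were lower (47.5%) and all 59 had a negative fold change (9, 6, 2, 50, 2 and 0). Of 42 genes that charge tRNAs with amino acids 20 were lower (47.6%) and 1 higher (7, 3, 3, 29, 3 and 3). The kinase Rio1 (AOL_s00043g612), which helps finish the small subunit, gave -1.81, and tryptophan tRNA ligase (AOL_s00173g186) -1.49. The 1 ligase called higher was a gene annotated as aspartate tRNA ligase (AOL_s00076g658), with 62.1, 25.2 and 9.6 against 119.6, 326 and 244 TPM (3.03), a call lost without wild-type replicate 3 and labelled replicates 2 and 3 (adjusted p up to 0.0546).

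Proteasome genes and some folding genes were lower. Of 36 proteasome genes 26 were called lower (72.2%, against 14.7% of all genes) and none higher (median -0.86), 12 of 14 in the core that cuts proteins and 12 of 18 in the cap that admits them. Leaving out each library gave 5, 12, 3, 25, 4 and 2. The 18 genes of the cap include AOL_s00083g493, put there by its KEGG entry but otherwise annotated as the DNA replication regulator SLD2. Of 64 genes of ubiquitin ligation, which marks proteins for the proteasome, 12 were lower (18.8%, against 14.7% of all genes; 3 to 15 without each library) and 1 higher, and the sums overlapped (6592 to 7129 TPM in the wild type, 6747 to 8543 TPM in the labelled libraries). The core subunit alpha 2 (AOL_s00081g362) had 402, 315 and 385 TPM in the wild type against 187, 122 and 154 TPM in the labelled libraries (-1.26, limma adjusted p = 0.00935). Of the 8 subunits of the CCT ring, which folds actin and tubulin, 7 were lower (median -1.11), though none in every leave-one-out fit. In the ER 28 of 83 processing genes were lower (33.7%, against 14.7% of all genes) and 2 higher (21, 13, 15, 30, 12 and 14), and SCJ1 (AOL_s00083g354), a co-chaperone of the ER, had 164, 253 and 255 against 64.4, 39.6 and 39.3 TPM (-2.22, adjusted p = 0.00258).

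Enzymes that build sugar chains for the wall and for secreted proteins were lower. Of 75 genes for mannan, N-glycans and GPI anchors 32 were lower (42.7%, against 14.7% of all genes) and none higher (median -0.77; 18, 17, 16, 37, 14 and 14 without each library). DPM1 (AOL_s00004g269), which makes the mannose donor used in the ER, had 303, 292 and 422 TPM in the wild type against 122, 73.2 and 135 TPM in the labelled libraries (-1.64, limma adjusted p = 0.00504). Of 104 cytoskeleton genes 32 were lower (30.8%) and 5 higher (4.81%; median -0.65; lower counts 14, 12, 9, 43, 7 and 5); keyword matching put RFC3, a replication gene, into this list. CDC42 (AOL_s00043g439), a GTPase that sets the growing pole of a hypha, had 359, 302 and 356 against 199, 166 and 185 TPM (-0.88), a call that ended without wild-type replicate 3 and labelled replicates 2 and 3 (adjusted p up to 0.0586).

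**Figure D4:**
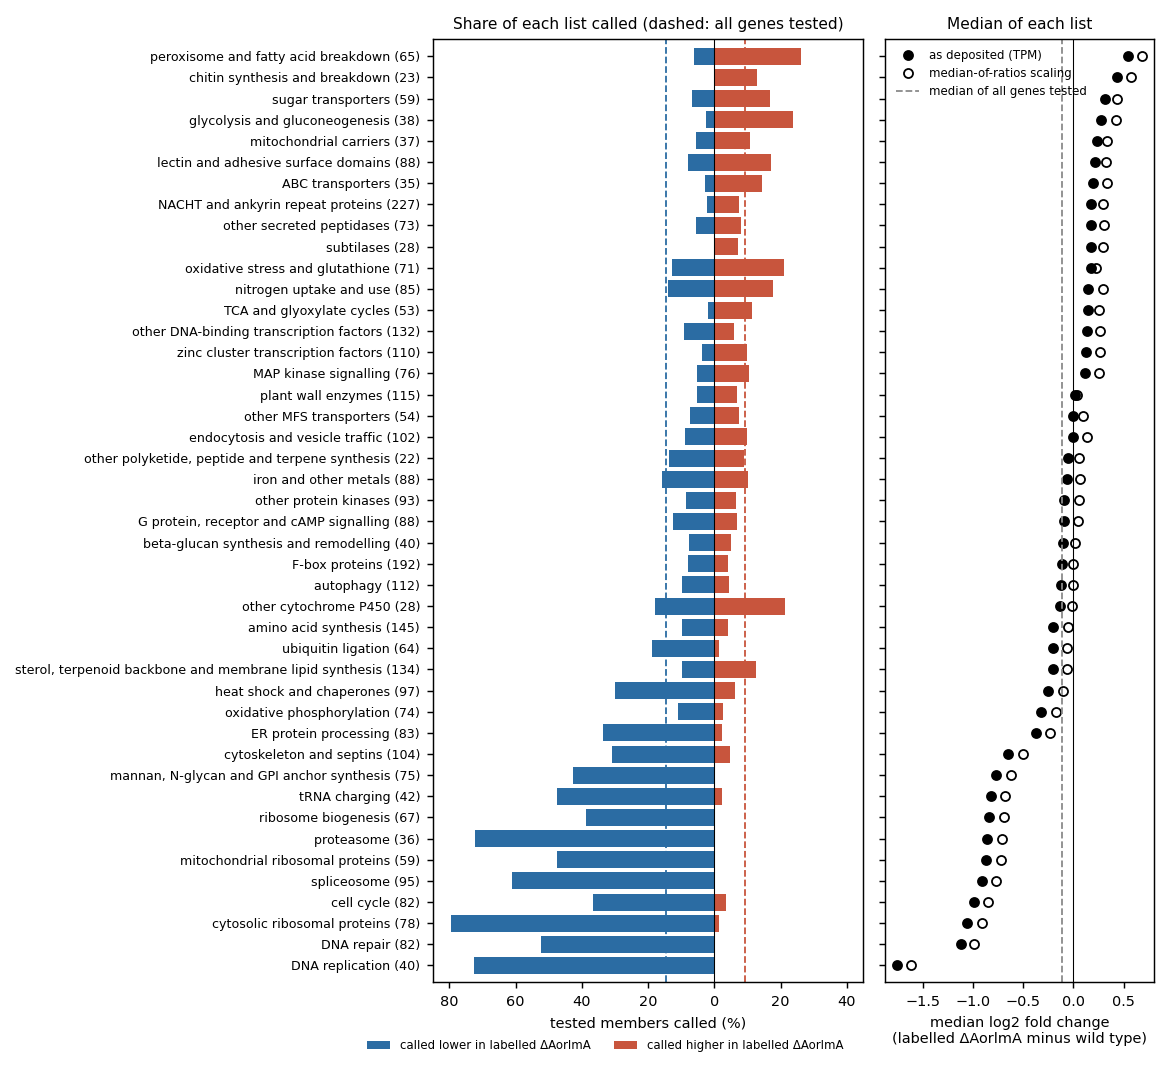
Share of the tested members of each gene list called higher or lower at 48 h, with the number tested in brackets, and the median log2 fold change of each list with TPM as deposited and after median-of-ratios scaling. Lists of DNA, RNA and protein synthesis lie at the lower end under both scalings, and peroxisome and fatty acid breakdown at the upper end.

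Genes of the peroxisome and of fatty acid breakdown were called higher more often than lower. Of 65 such genes 17 were called higher (26.2%, against 9.2% of all genes) and 4 lower (0 to 5 without each library), with a median of 0.54, and the sum over the list was 8880, 7565 and 7309 TPM in the wild type against 10707, 16935 and 15047 TPM in the labelled libraries. The higher count without each library was 14, 8, 3, 21, 4 and 4. An acyl-CoA dehydrogenase (AOL_s00079g276), which takes the first step in breaking a fatty acid, had 93.5, 89.7 and 91.3 against 188, 313 and 317 TPM (1.53, limma adjusted p = 0.00535). Carnitine acetyltransferase (AOL_s00109g53), which moves the acetyl units that result, had 124, 128 and 109.7 against 325, 764 and 529.7 TPM (2.07). Both kept the call without each library. PEX11 (AOL_s00083g431), which divides peroxisomes, had 119, 110.04 and 70.3 against 185, 1414 and 747 TPM (2.56), a call that ended without wild-type replicate 3 and labelled replicates 2 and 3 (adjusted p up to 0.0707). The member with the lowest adjusted p among those lower, AOL_s00169g11, is annotated both as PEX16 and with a DNA repair domain (-1.88, ended without each library except labelled replicate 1, adjusted p up to 0.0818).

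Of 38 genes of glycolysis and gluconeogenesis 9 were higher (23.7%, against 9.2% of all genes), 2 of them in every leave-one-out fit, and 1 lower, and the lower one (AOL_s00006g136, -1.67) is annotated as a kinetochore protein as well; it was no longer called without any 1 wild-type library or labelled replicate 2 (adjusted p up to 0.0684). PEP carboxykinase (AOL_s00004g362), the entry to gluconeogenesis, had 41.8, 36.6 and 14.9 TPM in the wild type against 318, 135 and 108.6 TPM in the labelled libraries (2.51, limma adjusted p = 0.00683), with replicate 1 the highest of the labelled libraries here. Fructose-1,6-bisphosphatase (AOL_s00078g34), the last committed step of that route, had 31.03, 26.8 and 15.5 against 46.7, 105.6 and 51.3 TPM (1.39). This call was lost without wild-type replicates 2 and 3 and labelled replicates 2 and 3 (adjusted p up to 0.110). Enzymes that serve glycolysis as well, chosen after their values were seen, were also called higher. GAPDH (AOL_s00169g10) averaged 1551 against 2995 TPM (1.01), phosphoglycerate kinase (AOL_s00006g198) 149 against 328 TPM (1.12) and aldolase (AOL_s00004g332) 185 against 346 TPM (0.88). None of these calls stood in every leave-one-out fit (limma adjusted p up to 0.151). At 0 h the aldolase was called lower with TPM as deposited (-1.05, limma adjusted p = 0.0132). Across the leave-one-out fits 8, 5, 3, 8, 2 and 4 genes of the list were higher. Of 53 genes of the TCA and glyoxylate cycles 6 were higher, PEP carboxykinase included (11.3%, near the 9.2% of all genes; 1 to 8 without each library), and 1 lower (0 to 4).

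Among carriers, more sugar and ABC transporters were called higher than lower. Of 59 sugar transporters 10 were higher (16.9%, against 9.2% of all genes) and 4 lower (6.78%, against 14.7%; higher counts 9, 5, 3, 14, 4 and 2 without each library), with a summed level of 1362, 1311 and 1075 TPM in the wild type against 2067, 4479 and 2611 TPM in the labelled libraries. A fucose symporter (AOL_s00076g531) had 6.89, 12.4 and 2.08 against 23.8, 104.6 and 69.2 TPM (3.05, limma adjusted p = 0.00941), and a lactose permease (AOL_s00188g356) went the other way, with 29.2, 32.5 and 31.6 against 10.9, 4.54 and 5.61 TPM (-2.08). The plasma membrane ATPase PMA1 (AOL_s00007g539), whose proton gradient drives such carriers, had 1429, 1392 and 798 against 3056, 3960 and 4225 TPM (1.67, adjusted p = 0.00677). The small membrane protein PMP3 (AOL_s00173g93) had the largest gain of TPM by the same criteria as RPS25, from 1916, 1340 and 1003 to 3236, 13861 and 10229 TPM (2.49, adjusted p = 0.00747). In each of these 4 genes the groups did not overlap and labelled replicate 1 lay nearest the wild type. Of 54 other transporters of the major facilitator superfamily (MFS) 4 were higher (7.41%, under the 9.2% of all genes) and 4 lower (2 to 8 and 0 to 9 without each library). Of 35 ABC transporters 5 were higher (14.3%; 2 to 7) and 1 lower (2.86%; 0 to 1), and a transporter annotated as CDR4 (AOL_s00117g35), of a family that includes drug pumps of Candida, had 5.61, 4.08 and 3.5 against 19.5, 247 and 295 TPM (4.43, adjusted p = 0.009).

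Nitrogen genes went both ways. Of 85 tested 15 were higher (17.6%, against 9.2% of all genes) and 12 lower (14.1%, near the 14.7% of all genes; higher counts 10, 8, 6, 13, 8 and 6 without each library, lower counts 4, 7, 4, 16, 5 and 4). The lower ones included carriers of ammonium and urea. MEP2 (AOL_s00043g163), which imports ammonium and in yeast also senses its lack, had 991, 1131 and 1176 TPM in the wild type against 372, 101 and 149.8 TPM in the labelled libraries (-2.61, limma adjusted p = 0.00665). The urea transporter DUR3 (AOL_s00215g323) had 55.4, 87.4 and 80.3 against 14.8, 3.9 and 5.86 TPM (-3.19). The nitrate transporter (AOL_s00004g610), counted among the MFS transporters, had 1340, 825 and 826 against 199, 212 and 97.9 TPM (-2.59, adjusted p = 0.0166). Its neighbour nit-4 (AOL_s00004g609), which switches on nitrate genes in Neurospora, had 105.7, 66.8 and 73.6 against 29.9, 21.9 and 15.9 TPM (-1.83).

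The enzymes of nitrate use stood beside these carriers without all passing. Nitrite reductase (AOL_s00210g162) had 1173, 618 and 579.7 TPM in the wild type against 245, 259 and 199.7 TPM in the labelled libraries (-1.68, limma adjusted p = 0.0205). Its neighbour nitrate reductase (AOL_s00210g163) had 525, 264 and 224 against 173, 191 and 174 TPM (-0.81, adjusted p = 0.0997), groups that did not overlap in a difference that missed the threshold. The nitrate transporter's call ended without wild-type replicates 1 and 3 and labelled replicate 3 (adjusted p up to 0.0800), and that of nitrite reductase without wild-type replicate 1 and labelled replicates 2 and 3 (up to 0.0828).

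Single genes of amino acid, peptide and purine use, chosen after their values were seen except for MUP1, were called in both directions. The methionine permease MUP1 (AOL_s00007g98) had 28.9, 27.4 and 29.6 TPM in the wild type against 112, 103 and 120.02 TPM in the labelled libraries (1.93, limma adjusted p = 0.00258), without overlap. Uricase (AOL_s00097g623), which opens the ring of uric acid, had 314, 423 and 185 against 1721, 1074 and 1543 TPM (2.28, adjusted p = 0.00875). Guanine deaminase (AOL_s00043g146), which feeds guanine into the same route, had 84.6, 109.3 and 35.8 against 349, 261 and 182 TPM (1.86, ended without wild-type replicate 3 with adjusted p = 0.0565). Allantoinase (AOL_s00007g202), a later step, was lower (453, 391 and 535 against 225, 84.8 and 199.6 TPM, -1.54, ended without wild-type replicate 3 with adjusted p = 0.0534), and so was a purine permease (AOL_s00079g16), with 527, 447 and 370 against 325, 106.3 and 122 TPM (-1.45, not called without each library except labelled replicate 1, adjusted p up to 0.131). The peptide transporter PTR2 (AOL_s00215g902) had 1422, 1301 and 1247 against 3346, 5609 and 4730 TPM (1.75), which was not called without wild-type replicates 2 and 3 and labelled replicates 2 and 3 (adjusted p up to 0.0728).

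The polyketide cluster around 6-methylsalicylic acid synthase, whose product chain leads to the arthrosporols of this fungus, was higher. Of its 10 genes 9 were called higher and none lower, with a median of 2.88. Their sum was 260, 637 and 718 TPM in the wild type against 939, 6850 and 5663 TPM in the labelled libraries, and labelled replicate 1 lay nearest the wild type in all 10. The synthase (AOL_s00215g283) had 1.6, 5.64 and 4.61 against 22.3, 347 and 186 TPM (4.64, SE 0.88, limma adjusted p = 0.00716), and the P450 AOL_s00215g280 had 6.96, 26.8 and 24.7 against 57.5, 464 and 321 TPM (3.53, adjusted p = 0.00921). The count without each library in turn was 5, 7, 7, 10, 3 and 3. The genes around the cluster formed the longest run of neighbouring genes called in 1 direction, 10 genes from AOL_s00215g275 to AOL_s00215g284. The last of these, a ubiquitin hydrolase outside the pathway (1.19), had overlapping groups, and its call ended without each library except labelled replicate 1 (adjusted p up to 0.166). At 0 h 9 of the cluster's genes were higher as well.

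Of the 10 largest rises among annotated genes whose groups did not overlap, 4 are of oxidoreductases, singled out after their values were seen. AOL_s00043g281, annotated only as an oxidoreductase of fission yeast, had 29.3, 13.3 and 19.0 TPM in the wild type against 269, 2807 and 2232 TPM in the labelled libraries (5.86, SE 1.12, limma adjusted p = 0.00716). The old yellow enzyme AOL_s00210g160 had 66.2, 48.2 and 22.9 against 279, 1078 and 639 TPM (3.75), and the short-chain dehydrogenase AOL_s00054g534 had 0.36, 0.18 and 0.89 against 3.41, 48.6 and 24.7 TPM (3.62). The reductase AOL_s00007g346, named for sirO, had 5.32, 4.41 and 6.08 against 27.5, 465 and 233 TPM (4.55), and its call ended without labelled replicates 2 and 3 (adjusted p up to 0.0555). In each of the 4 genes labelled replicate 1 was far below the other 2 labelled libraries and above the wild type. Of 28 P450 genes outside the cluster 6 were higher (21.4%, against 9.2% of all genes) and 5 lower (17.9%, near 14.7%), and 1 to 5 and 2 to 6 without each library. By the same criteria, and at 5 TPM or more, the largest fall was that of a P450 named for yanH (AOL_s00080g313), with 104.2, 100.03 and 91.8 against 17.1, 9.26 and 3.06 TPM (-3.45, adjusted p = 0.00597).

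Of 71 genes against oxidative stress 15 were higher (21.1%, against 9.2% of all genes) and 9 lower (12.7%, under the 14.7% of all genes), and the lower ones include the subunits of ribonucleotide reductase. The higher count without each library was 13, 5, 4, 18, 7 and 2, and the lower count ran from 0 to 13. A thioredoxin (AOL_s00169g249), a small protein that reduces disulfides, had 68.1, 64.0 and 104 TPM in the wild type against 195, 173 and 222 TPM in the labelled libraries (1.34, limma adjusted p = 0.00632). A glutathione S-transferase (AOL_s00097g598), which tags toxic compounds, had 78.3, 45.5 and 40.4 against 121, 584 and 403 TPM (2.52, adjusted p = 0.00935). Catalase (AOL_s00173g374), which breaks down hydrogen peroxide, had 252, 219 and 173 against 450.4, 421 and 548 TPM (1.14), a call that ended without wild-type replicate 3 and labelled replicate 3 (adjusted p up to 0.0722). Among heat shock genes 6 of 97 were higher (6.19%, under the 9.2% of all genes) and 29 lower (29.9%, against 14.7%; 1 to 5 and 8 to 34 without each library). HSP30 (AOL_s00112g95), a small heat shock protein, had 18.0, 91.5 and 26.1 against 208, 725 and 178 TPM (3.05, adjusted p = 0.0103).

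Cell wall integrity genes other than RLM1 did not pass the test at 48 h. Of 10 tested genes of the core pathway RLM1 alone was called, and the median was -0.17. The MAP kinase of the pathway (AOL_s00173g235) had 111, 80.9 and 92.7 TPM in the wild type against 67.1, 58.1 and 74.7 TPM in the labelled libraries, groups that did not overlap (-0.50, limma adjusted p = 0.133). The kinase above it (AOL_s00076g699) had 91.3, 102 and 86.0 against 89.7, 73.4 and 79.1 TPM (-0.20, SE 0.37), and that above it in turn (AOL_s00054g475) 20.5, 24.4 and 12.9 against 20.4, 20.7 and 11.3 TPM (-0.14, SE 0.34). The pair of neighbouring loci annotated as protein kinase C (AOL_s00006g6 and AOL_s00006g7) gave 0.05 and 0.25. AOL_s00075g215, annotated as Res2, a factor of the Swi4 type, which in yeast acts beside Rlm1 under the same kinase, had 34.4, 29.2 and 29.5 against 22.1, 11.3 and 11.1 TPM (-1.08, adjusted p = 0.053), just outside the threshold. In the wider MAP kinase list of 76 genes 8 were higher, RLM1 among them (10.5%, near the 9.2% of all genes), and 4 lower (5.26%, under 14.7%; higher counts 6, 3, 2, 12, 3 and 1, lower counts 0 to 8).

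Of 40 beta-glucan genes 2 were higher (5.0%, against 9.2% of all genes) and 3 lower (0 to 1 and 1 to 5 without each library). Of 23 chitin genes 3 were higher (13.04%; 0 to 5 without each library) and none lower. The groups lay apart upward in 11 of the 23, against 1691 of all 9355 genes, and the sum over the chitin list was 960, 1037 and 863 TPM in the wild type against 1392, 1413 and 1448 TPM in the labelled libraries, without overlap. FKS1 (AOL_s00054g491), which spins the main glucan, had 256, 250.05 and 192 TPM in the wild type against 337, 255 and 290 TPM in the labelled libraries (0.34, SE 0.25, limma adjusted p = 0.339). The chitin synthase AOL_s00210g143 had 5.92, 4.57 and 5.1 against 12.6, 22.8 and 31.4 TPM (1.83, adjusted p = 0.00991), and its call ended without labelled replicate 3 (adjusted p = 0.0525). The glucan-remodelling enzyme gel3 (AOL_s00054g226) had 109.5, 104.97 and 82.0 against 24.6, 34.4 and 15.8 TPM (limma adjusted p = 0.00716) and kept the call without each library.

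Proteins thought to face the nematode were counted next. Of 88 genes with lectin or adhesive domains 15 were higher (17.05%, against 9.2% of all genes) and 7 lower (higher counts 10, 6, 6, 15, 12 and 5), and a ribosomal protein is among those the keywords admitted. The most abundant of them, the ricin-type lectin AOL_s00043g240, had 39058, 43246 and 57867 TPM in the wild type against 28149, 19873 and 26257 TPM in the labelled libraries. Its groups did not overlap, but the difference missed the threshold (-0.91, SE 0.36, limma adjusted p = 0.0773). Genes with the domain DUF3129, a family of secreted proteins known from the infection structures of plant pathogens, had 6 higher and 1 lower of 15 tested, from 33 in the annotation, where 9.2% and 14.7% of all genes were; without each library in turn 5, 5, 4, 5, 6 and 4 were higher and at most 1 lower, and 4 kept the higher call throughout. AOL_s00193g63 had 0.3, 0.5 and 0.23 against 5.27, 3.03 and 6.96 TPM (2.13, adjusted p = 0.00178). AOL_s00185g3 had 2.6, 2.45 and 1.32 against 11.9, 32.1 and 9.02 TPM (2.41, adjusted p = 0.00595). Its labelled mean of 17.7 TPM was the highest among the 6 called higher. Summed over the DUF3129 family the groups overlapped, with 229.8, 147.5 and 158.7 TPM in the wild type and 162, 124.5 and 156.7 TPM in the labelled libraries. The member called lower, AOL_s00075g1, averaged 159.7 against 87.3 TPM. Its call ended without each library except labelled replicate 1 and under median-of-ratios scaling.

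Secreted proteases, some of which digest the prey, were called higher at shares near or below that of all genes (9.2%). Of 28 subtilases 2 were higher (7.14%; 0 to 2 without each library) and none lower. The subtilase sum was 5352, 4072 and 3079 TPM in the wild type against 6409, 9979 and 7978 TPM in the labelled libraries, without overlap. Most of it came from AOL_s00210g7, annotated only with an inhibitor domain of type I9 (3468, 2412 and 1735 against 4409, 7507 and 6095 TPM), and without that gene the sums nearly touched (1883.21, 1659 and 1344 against 1999.9, 2472 and 1883.27 TPM). Of 73 other secreted peptidases 6 were higher (8.22%; 1 to 9) and 4 lower (0 to 7). The largest rise among them was that of AOL_s00078g418, with a trypsin domain, which had 0.08, 0.21 and 0.23 TPM in the wild type against 42.0, 11.1 and 56.5 TPM in the labelled libraries (4.73, SE 0.53, limma adjusted p = 0.000666). An inhibitor of serine proteases, AOL_s00006g563, had 108.8, 32.8 and 73.5 against 335, 2763 and 1294 TPM (4.03, adjusted p = 0.00716). The cerato-platanin AOL_s00083g444, a small secreted protein of fungal surfaces, had 925, 2921 and 808 against 6401, 10741 and 6479 TPM (2.56, adjusted p = 0.0133). Its call ended without wild-type replicate 3 and labelled replicate 2 (adjusted p up to 0.0598).

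Markers of conidia, the asexual spores that a culture may hold beside hyphae, were mostly not called at 48 h. Of 11 markers 9 were tested. Of these 2 were higher (22.2%, against 9.2% of all genes), and 0 to 2 without each library. Only 1 was lower (11.1%, against 14.7%), and 1 to 5 without each library, the 5 without labelled replicate 1. A negative fold change was found in 7 of the 9 (median -0.63), and the markers ranged from -1.89 to 2.49. Their sum was 866, 1245 and 557 TPM in the wild type against 2159, 221 and 311 TPM in the labelled libraries, so that labelled replicate 1 was the highest of the 6 and the other labelled libraries were the lowest. At 0 h 7 were called lower, and 5 under median-of-ratios scaling. A single marker was at 0 in all 6 libraries. The 1 marker called lower, the hydrophobin AOL_s00007g172, had 8.13, 4.91 and 3.06 against 0.96, 0.0 and 1.19 TPM (-1.89, limma adjusted p = 0.00716). The part of spores in the differences was not tested. The developmental regulator flbA (AOL_s00215g516), which turns growth toward sporulation in Aspergillus, had 44.5, 43.3 and 46.6 against 91.9, 185 and 127 TPM (1.51, adjusted p = 0.0146), a call that ended without labelled replicates 2 and 3 (adjusted p up to 0.0649).

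Transcription factors were called at shares near or below those of all genes (9.2% higher, 14.7% lower). Of 110 zinc cluster factors 11 were higher (10%) and 4 lower (3.64%; higher counts 5, 4, 2, 17, 3 and 2). Of 132 other DNA-binding factors 8 were higher (6.06%) and 12 lower (9.09%; 1 to 15 and 6 to 20 without each library), a list that the keywords extend to a histone. AOL_s00043g432, a zinc cluster factor, had 13.9, 11.6 and 9.93 TPM in the wild type against 37.3, 36.3 and 54.8 TPM in the labelled libraries (1.76, limma adjusted p = 0.0046). SFL1 (AOL_s00043g47), a repressor of filament and flocculation genes in yeasts, had 38.01, 29.0 and 19.7 against 56.9, 108.4 and 83.0 TPM (1.49, adjusted p = 0.00935). Of 227 NACHT and ankyrin repeat proteins, a family linked to self-recognition in fungi, 17 were higher (7.49%, under the 9.2% of all genes; 2 to 17 without each library) and 5 lower.

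Genes without annotation held the largest rises of all. AOL_s00004g300 had 9.11, 5.07 and 3.7 TPM in the wild type against 1755, 3864 and 3178 TPM in the labelled libraries (8.72, SE 0.73, limma adjusted p = 7.09e-05). AOL_s00079g308 had 0.2, 0.26 and 0.05 against 517, 122.6 and 375 TPM (7.95, SE 0.46, adjusted p = 2.61e-06), and AOL_s00080g84 had 2.98, 1.79 and 1.53 against 398, 94.97 and 439 TPM (6.40, adjusted p = 7.09e-05). In the last pair it was labelled replicate 2, not replicate 1, that lay nearest the wild type. Of the falls, AOL_s00215g429 had 358, 329 and 260 against 74.6, 12.99 and 14.5 TPM (-3.63, adjusted p = 0.00371). Among the annotated genes that fell, AOL_s00188g153, with a membrane domain of the MARVEL type, is listed at 0 in all 3 labelled libraries, against 8.7, 4.03 and 4.09 TPM in the wild type.

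Some called genes lay side by side in the gene order of the RefSeq table. Runs of at least 4 neighbours called in 1 direction numbered 9 with 43 genes among those higher and 25 with 110 genes among those lower. The longest lower run, AOL_s00078g86 to AOL_s00078g91, held 6 genes. The run from AOL_s00006g345 to AOL_s00006g348, also lower, holds RPA2, a mitochondrial ribosomal protein and a DNA polymerase subunit. A higher run of 5, AOL_s00210g118 to AOL_s00210g122, ends in a peroxisomal thiolase and includes thiamine pyrophosphokinase.

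The strain difference at 48 h was set beside that at 0 h, a comparison of 6 other libraries in the same fit. At 0 h 830 genes were higher (8.87%) and 3160 lower (33.8%) in the labelled libraries, with a median of all genes of -0.56. Median-of-ratios scaling moved that median to -0.06 and called 1341 higher and 1033 lower at 0 h, so the balance at 0 h rests on the scaling. Some lists with more members higher than lower at 48 h had more lower than higher at 0 h with TPM as deposited. Sugar transporters had 6 higher and 18 lower, and oxidative stress genes 4 and 19. Lectin and adhesive domain genes had 8 and 22, and glycolysis genes 5 and 11. In the same order the counts after scaling were 7 and 8, 10 and 3, 15 and 8, and 5 and 1. With TPM as deposited, of the genes called higher at 48 h 326 were also higher at 0 h (37.9% of the 48 h genes and 39.3% of the 0 h genes), and of those called lower 834 were also lower (60.7% and 26.4%). After scaling the shared calls were 460 higher (45.9% and 34.3%) and 268 lower (22.9% and 25.9%). With TPM as deposited, a call at 48 h alone held for 1014 genes, 498 higher and 516 lower, but by the interaction test the strain difference itself differed between the times in only 48 and 15 of them. That test called 414 of all genes (4.43%), and among those called at 48 h 92 of the higher and 39 of the lower. For the remaining 2103 a difference between the times was not shown. Opposite calls at 0 h and 48 h were found in 60 genes, and in 34 after scaling. The interaction test called all 60, which opposite calls at these thresholds bring about by themselves, so its calls add nothing there.

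**Figure D5:**
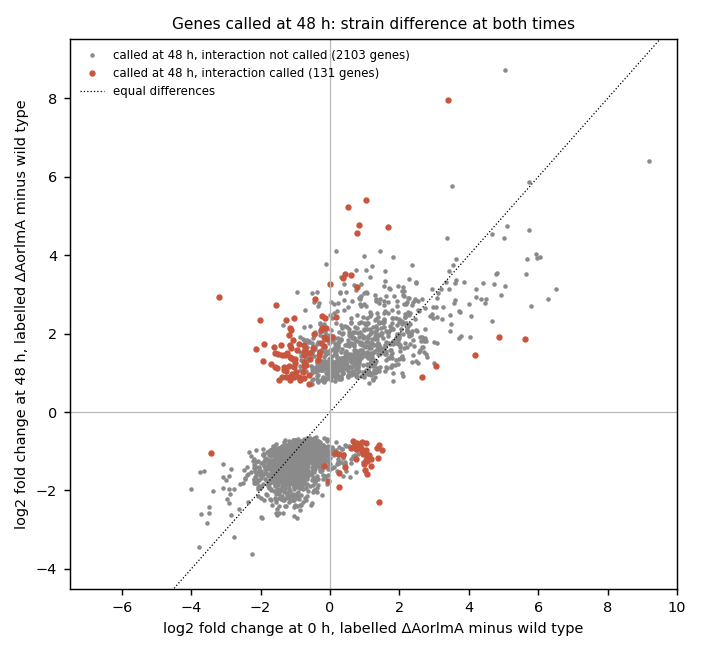
Log2 fold change between the strains at 0 h (x) and 48 h (y) for the genes called at 48 h, with those called by the interaction test marked. Most points lie on the same side of 0 at both times, and the 60 genes with opposite calls lie at the upper left and lower right.

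Genes that turned included signalling proteins. AOL_s00043g257, a regulator of G protein signalling, averaged 67.5 TPM in wild-type and 15.9 TPM in labelled libraries at 0 h (-2.01), and at 48 h had 8.97, 10.6 and 7.92 against 22.2, 98.2 and 57.2 TPM (2.34; interaction 4.35, limma adjusted p = 0.011). AOL_s00054g163, a kinase related to SNF1, averaged 24.6 and 10.3 TPM at 0 h (-1.28) and had 3.19, 1.74 and 1.85 against 13.1, 11.95 and 23.0 TPM at 48 h (2.35; interaction 3.63, adjusted p = 0.011). The ribosome biogenesis list had 18 genes higher and 10 lower at 0 h, none higher and 26 lower at 48 h, and 13 called by the interaction test, all downward; after scaling 32 were higher and 3 lower at 0 h. The interaction count rested on single libraries as well, and ran from 17 without wild-type replicate 3 to 876 without labelled replicate 1 at 48 h.

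The authors' deposited table of calls for the same comparison lists 1809 genes up and 956 down. It holds 840 (97.6%) of the 861 genes called higher here and 819 (59.7%) of the 1373 called lower, which are 46.4% and 85.7% of the authors' lists, and no gene was called in opposite directions. The table gives no thresholds, so the difference in balance between the lists was not tested.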

How the data were processed

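Per the labels' protocols, total RNA of hyphae went into Illumina libraries. Genotype and time labels set the groups. Titles gave the replicate numbers, since the description of 2 labelled libraries at 48 h repeats that of replicate 1. The authors deposited TPM values per gene, and FPKM values that are proportional to TPM within a library, with annotations (Swiss-Prot, KEGG, Pfam). Read counts per library and percent of bases at quality 30 come from the authors' deposited sequencing statistics. For the aligner, quantifier and genome build: not given in the sources used here. The table named for raw counts holds correlations and was not used, so no count test was run. Columns of group means (8) were left out.

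The test took the 9355 of 11479 genes that reached 1 TPM in 3 or more of the 12 libraries, using limma 3.58.1 (R 4.3.3; lmFit, eBayes with a trend) on log2(TPM + 1) over all 12 libraries, with 4 group means and without the replicate number as a block. Fold changes on this scale understate those of low genes. All tests were two-sided, p-values were adjusted by Benjamini and Hochberg's method over every gene tested, and a call is an adjusted p under 0.05. The fit was tested on simulated data. Depth is given as clean reads; no counting error per gene was derived from it.

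The comparison, the 49 gene lists (annotation keywords, which admit some odd members) and the rule for named genes were chosen with earlier results of these data known. The rule took the MADS-box and core wall integrity genes, the 10 largest rises and falls and the 5 largest gains and losses of TPM among annotated genes called with at least 5 TPM and groups that did not overlap, the 3 largest rises and falls without annotation, the lowest adjusted p of each list and direction, and the 5 lowest of the interaction. Subunits of complexes and single genes outside it were chosen after their values were seen, among them MCM, DNA polymerase, ribonucleotide reductase, PCNA, thymidylate synthase, histones H2A, H2B, H3 and 1 H4 gene, nitrate and purine genes, PEX11, the peptide transporter PTR2, the aldolase, flap endonuclease 1, carnitine acetyltransferase, fructose-1,6-bisphosphatase, glutathione transferase, catalase, the abundant lectin, the DUF3129 genes and those of the cluster other than the synthase. Alternatives changed the scaling, the pseudocount, the filter, the libraries and the model, 1 at a time. Gene names all matched locus tags of the RefSeq table.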

Additional observations from a re-analysis of the deposited data

Results flagged for a closer look

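In 17 of the genes named here the strain difference at 48 h differed from that at 0 h by the interaction term of the limma fit (48 h minus 0 h, on the log2 scale, adjusted p under 0.05). The difference was upward in 16 of them. Over all genes the test called 414 (4.43%), 302 of them upward, and the median interaction was 0.34. The rule for named genes took the 5 lowest adjusted p of the interaction, so the 17 are no share to set against all genes. All values are with TPM as deposited, and the balance at 0 h rests on the scaling. Among signalling and gene regulation the interaction was 4.35 for the G protein regulator AOL_s00043g257, 3.63 for the kinase AOL_s00054g163, 3.11 for the zinc finger protein AOL_s00083g259, 2.29 for the RING protein AOL_s00078g545 and 2.01 for the zinc cluster factor AOL_s00043g432. For surface and secreted proteins it was 3.05 for the trypsin-like AOL_s00078g418, and 2.97, 2.56 and 2.25 for the DUF3129 genes AOL_s00054g548, AOL_s00185g3 and AOL_s00193g63. Of genes in metabolism and transport, it was 3.80 for AOL_s00081g143, with a glycolipid synthase domain, 3.09 for the acetyltransferase AOL_s00078g525, 2.24 for the syntaxin AOL_s00215g878, 1.94 for the aldolase AOL_s00004g332 and 1.86 for the methionine permease AOL_s00007g98. It was 2.48 for the cofilin AOL_s00006g152 and 4.56 for AOL_s00079g308, which has no annotation.

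The glucan synthase FKS1 (AOL_s00054g491) went the other way, with an interaction of -2.08. At 0 h it averaged 71.5 TPM in wild-type and 397 TPM in labelled libraries, and at 48 h it did not pass. The interaction count itself moved with single libraries, and the part of labelled replicate 1 in these 17 values was not tested.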

How the results depend on the processing

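The number of genes called at 48 h (2234) stayed within 1.5 times under the 9 alternatives that kept all libraries of the comparison, from 2055 to 2396. The replicate block gave 2055 (798 higher, 1257 lower); same-numbered libraries did not deviate together (correlations at 48 h of -0.316, 0.008 and 0.05), so the numbers were not taken as pairs. Leaving out 1 library gave 491 to 3093 genes, 223 to 1093 higher and 268 to 2000 lower. At 0 h 3990 genes were called, and 2374 (1341 higher, 1033 lower) under median-of-ratios scaling. The interaction count of 414 fell to 260 with a pseudocount of 0.1, rose to 605 with a pseudocount of 5 and ran from 17 to 876 with 1 library left out. The cause was not tested. The RLM1 gene kept its direction and its call throughout (1.33 to 1.66, adjusted p up to 0.0424). Of 172 genes taken by the rule or singled out and called at 48 h, 93 kept the call with each library left out. Under all of the other 9 alternatives 151 kept it. None turned, which leaving out 1 library cannot bring about where the groups do not overlap. Depth is known per library and not per gene, so its own share of the spread was not worked out.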

Other observations

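Of 134 genes of sterol, terpenoid backbone and membrane lipid synthesis 17 were higher (12.7%, against 9.2% of all genes) and 13 lower (9.7%, under 14.7%) at 48 h, and 4 to 26 and 1 to 25 without each library. A lysophospholipase (AOL_s00097g279) had 29.3, 30.8 and 23.3 TPM in the wild type, and 85.3, 354 and 153 TPM in the labelled libraries (2.55, limma adjusted p = 0.00677). ERG26 (AOL_s00043g695), a step of sterol synthesis, had 120.96, 107.9 and 94.4 against 51.6, 23.2 and 25.7 TPM (-1.74, adjusted p = 0.00597). The lists that follow lay near or under the shares of all genes in both directions. Of 145 genes of amino acid synthesis 6 were higher and 14 lower (3 to 8 and 4 to 24 without each library), and of 112 autophagy genes 5 and 11 (0 to 12 and 2 to 15). Endocytosis and vesicle traffic had 10 and 9 of 102 (1 to 20 and 2 to 11), and G protein and cAMP signalling 6 and 11 of 88 (1 to 10 and 1 to 17). Rab11 (AOL_s00054g363), a GTPase of vesicles bound for the growing tip, had 702, 591 and 768 against 346, 173 and 223 TPM (-1.52, adjusted p = 0.00683). Metal genes had 9 higher and 14 lower of 88 (1 to 11 and 3 to 19), plant wall enzymes 8 and 6 (6.96% and 5.22%; 0 to 9 and 1 to 9), and F-box proteins 8 and 15 of 192 (2 to 10 and 3 to 24). Of 74 genes of oxidative phosphorylation 2 were higher, PMA1 among them, and 8 lower (1 to 4 and 0 to 10).

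Some single genes were chosen after their values were seen. The oxygenase ppoA (AOL_s00173g34), whose fatty acid products steer sporulation in Aspergillus, had 697, 690.3 and 514 against 352, 149.01 and 150.5 TPM (-1.65, limma adjusted p = 0.00801). N-acetylglucosamine-6-phosphate deacetylase (AOL_s00007g269), which feeds chitin sugar into metabolism, had 30.9, 30.55 and 18.3 against 96.5, 375 and 193.9 TPM (2.84, adjusted p = 0.00371). A phosphate transporter (AOL_s00006g460) had 9.85, 37.6 and 23.5 against 86.8, 585 and 84.1 TPM (2.91, adjusted p = 0.011). All 3 kept the call without each library in turn.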
